A study of Homo sapiens with 8 samples.

Results

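The genes described here encode chromatin regulators: the Polycomb repressive complexes, the SWI/SNF and NuRD remodelling complexes, other CHD remodellers, the enzymes that add and remove DNA methylation, the acetyltransferases EP300 and CREBBP, and the remodeller INO80. The set holds 49 genes chosen by name, of 11644 genes in the day 2 table and 14068 in the day 0 table. Of the 49, 48 are listed at day 2, 47 of those passed the filter on low counts and were tested, and 49 are listed at day 0. RNA-seq measured them in H1, an established line of human embryonic stem cells, that carried a SETD7 knockout (KO) or were wild type (WT). SETD7 is an enzyme that methylates lysines of histone H3 and of other proteins. At day 0, undifferentiated KO and WT cells gave 1 library each, and at day 2 of a protocol that directs the cells towards blood, KO and WT cells gave 3 libraries each. How the knockout was made, and whether it is 1 clone, is not given in the sources used here. Nothing says that replicates came from separate cultures, and p-values therefore measure the spread between these libraries alone, which may be technical.

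Polycomb repressive complex 2 (PRC2) methylates histone H3 at silenced developmental genes, and PRC1 adds ubiquitin to histone H2A and compacts chromatin there. SWI/SNF, NuRD and the CHD proteins use ATP to move or evict nucleosomes, SWI/SNF mostly to open chromatin and NuRD together with histone deacetylases. DNMT3A and DNMT3B set new DNA methylation, DNMT1 with UHRF1 copies it at replication, and the TET enzymes oxidise it on the way to its removal. Pluripotent cells are known for high DNMT3B and TET1, both of which decline as cells leave that state.

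Day 2 libraries held 27880068 to 39553614 counts, and the depth behind the day 0 FPKM values, which are scaled for length and depth, is unknown. SETD7 RNA was present in every library and lower in KO, with 32.9, 28.9 and 33.7 CPM in the KO libraries, against 54.8, 56.2 and 55.6 CPM in the WT libraries at day 2 (CPM, counts scaled to library size with TMM; log2 fold change of KO over WT -0.80), and 1.48 FPKM in KO and 3.53 FPKM in WT at day 0. KO replicate 1 stood apart from the other libraries: its counts differed from those of the other KO libraries by a chi-square per degree of freedom of 6.11 and 8.98, against 3.05 to 4.36 for the remaining pairs within a genotype. Between genotypes, pairs with KO replicate 1 differed by 17.7 to 21.8 and the remaining pairs by 11.4 to 12.6, and values without it are given below where they change a count. The cells at day 2 expressed nascent mesoderm markers such as MIXL1, at 1568 ± 29.6 CPM in KO and 1467 ± 19.3 CPM in WT, while 9 of 13 blood and endothelium markers, PECAM1, CDH5 and TAL1 among them, were not analysed at day 2. In bulk RNA, fewer cells of a type and less RNA per cell cannot be told apart.

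Promoter windows are shown for those genes that changed at day 2 and whose RefSeq start (GRCh38.p14) lies within 500 bases of the annotated gene start, up to 3 in each direction by adjusted p. Each runs 5′ to 3′ and ends just before the transcription start or the first exon base; windows that overlap exons of other genes are not shown. Capitals mark matches on either strand to letters of 4 motifs: E2F (TTTCGCGC, TTTGGCGC or TTTCCCGC), TCF/LEF (CTTTGAA or CTTTGAT), the Sp1 GC box (GGGCGG) and the NF-Y CCAAT box (CCAAT). Matches of the GC box can overlap each other. TET1, DNMT3A and PHC1 were higher in KO, and CREBBP and MBD3 were lower.
TET1, chr10:68560087-68560336, plus strand: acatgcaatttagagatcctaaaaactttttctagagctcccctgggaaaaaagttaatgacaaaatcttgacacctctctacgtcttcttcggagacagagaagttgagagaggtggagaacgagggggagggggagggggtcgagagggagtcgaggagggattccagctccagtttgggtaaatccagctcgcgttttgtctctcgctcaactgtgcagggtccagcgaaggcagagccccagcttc
DNMT3A, chr2:25342591-25342840, minus strand: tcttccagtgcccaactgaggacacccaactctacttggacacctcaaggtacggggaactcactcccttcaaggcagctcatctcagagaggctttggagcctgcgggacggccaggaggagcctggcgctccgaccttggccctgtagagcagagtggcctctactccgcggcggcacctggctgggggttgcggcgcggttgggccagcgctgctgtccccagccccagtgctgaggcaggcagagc
PHC1, chr12:8913593-8913842, plus strand: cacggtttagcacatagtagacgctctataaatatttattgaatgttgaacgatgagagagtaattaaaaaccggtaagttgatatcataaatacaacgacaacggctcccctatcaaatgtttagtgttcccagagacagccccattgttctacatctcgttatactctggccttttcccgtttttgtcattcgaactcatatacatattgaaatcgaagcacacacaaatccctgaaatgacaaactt
CREBBP, chr16:3880727-3880963, minus strand: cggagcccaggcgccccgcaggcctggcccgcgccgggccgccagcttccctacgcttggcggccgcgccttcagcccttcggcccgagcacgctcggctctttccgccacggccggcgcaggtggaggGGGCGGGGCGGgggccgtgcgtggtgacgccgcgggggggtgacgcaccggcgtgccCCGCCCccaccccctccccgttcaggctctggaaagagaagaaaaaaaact
MBD3, chr19:1592866-1593115, minus strand: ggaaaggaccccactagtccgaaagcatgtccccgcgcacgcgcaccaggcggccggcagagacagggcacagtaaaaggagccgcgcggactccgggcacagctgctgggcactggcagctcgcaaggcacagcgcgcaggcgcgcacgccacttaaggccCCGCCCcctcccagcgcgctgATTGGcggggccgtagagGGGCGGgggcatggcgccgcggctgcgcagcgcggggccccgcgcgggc
The 3 windows of the genes that were higher held none of these letters and 9, 12 and 10 CpG dinucleotides. The CREBBP window held 3 GC boxes and 31 CpG in 237 bases, and the MBD3 window 2 GC boxes, 1 CCAAT box and 32 CpG in 250 bases. The windows were chosen with the calls known and are too few to compare, and the window of MTA1, which was also higher in KO, held 30 CpG. RefSeq windows were matched for 43 of the 49 genes, and the GC box occurred in 27 of those 43 (62.8%), against 42.2% of 27305 windows of all genes. CCAAT occurred in 16 of 43 (37.2%), against 33.0% of all windows. E2F letters occurred in 3 (6.98%), against 2.36%, and TCF/LEF letters in 2 (4.65%), against 6.03%. The median window held 25 CpG among the 43 and 10 among all. The windows of all genes were not limited to genes expressed in these cells, so the 2 sets are unlike. A match is a description of the letters and no evidence of binding.

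At day 2, 7 of the 47 tested genes were higher in KO and 7 were lower, at an edgeR adjusted p under 0.05. Higher in KO were the DNA methylation enzymes TET1, DNMT3A and DNMT3B, the PRC1 subunits PHC1 and PCGF2, the SWI/SNF subunit SMARCC2 and the NuRD subunit MTA1. Lower in KO were the SWI/SNF subunits SMARCA4, SMARCD1 and PBRM1, the NuRD subunits CHD3 and MBD3, the PRC1 ubiquitin ligase RNF2 and the acetyltransferase CREBBP. The differences were small, with a median absolute log2 fold change of 0.17 among the 14, against 0.22 among all called genes, and 12 of the 14 were smaller than 0.32 in size. The 14 called genes are 29.8% of the 47, against 23.3% of all 11475 genes tested, of which 12.3% were higher and 11% lower in KO, and the 2 shares were not tested against each other. Likewise 17 of the 47 had no overlap between KO and WT libraries (9 higher, 8 lower), against 37.7% of all genes (18.9% higher, 18.8% lower). The median log2 fold change was -0.02 over the 47 and 0.00 over all genes. The split of the calls depended on the treatment of GC content and length: with both trends removed, 6 genes were higher and 17 lower (48.9% of the 47), in a fit that called 28.8% of 11338 genes, 1310 higher and 1954 lower. Without KO replicate 1, 8 were higher and 11 lower (40.4%), in a fit that called 21.1% of 11492 genes. TET1, SMARCC2, DNMT3A, DNMT3B, PHC1, CREBBP, SMARCD1, PBRM1 and CHD3 passed the threshold in all 14 alternative fits. Reads from exon bases shared with other genes cannot be told apart without a stated strand setting. Such bases made up 18.1% of PHC1, up to 11.7% of MBD3, up to 8.11% of MTA1 and 6.01% of SMARCC2. They made up none of TET1, DNMT3A, DNMT3B, CREBBP, SMARCD1, CHD3 and RNF2.

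**Figure D1:**
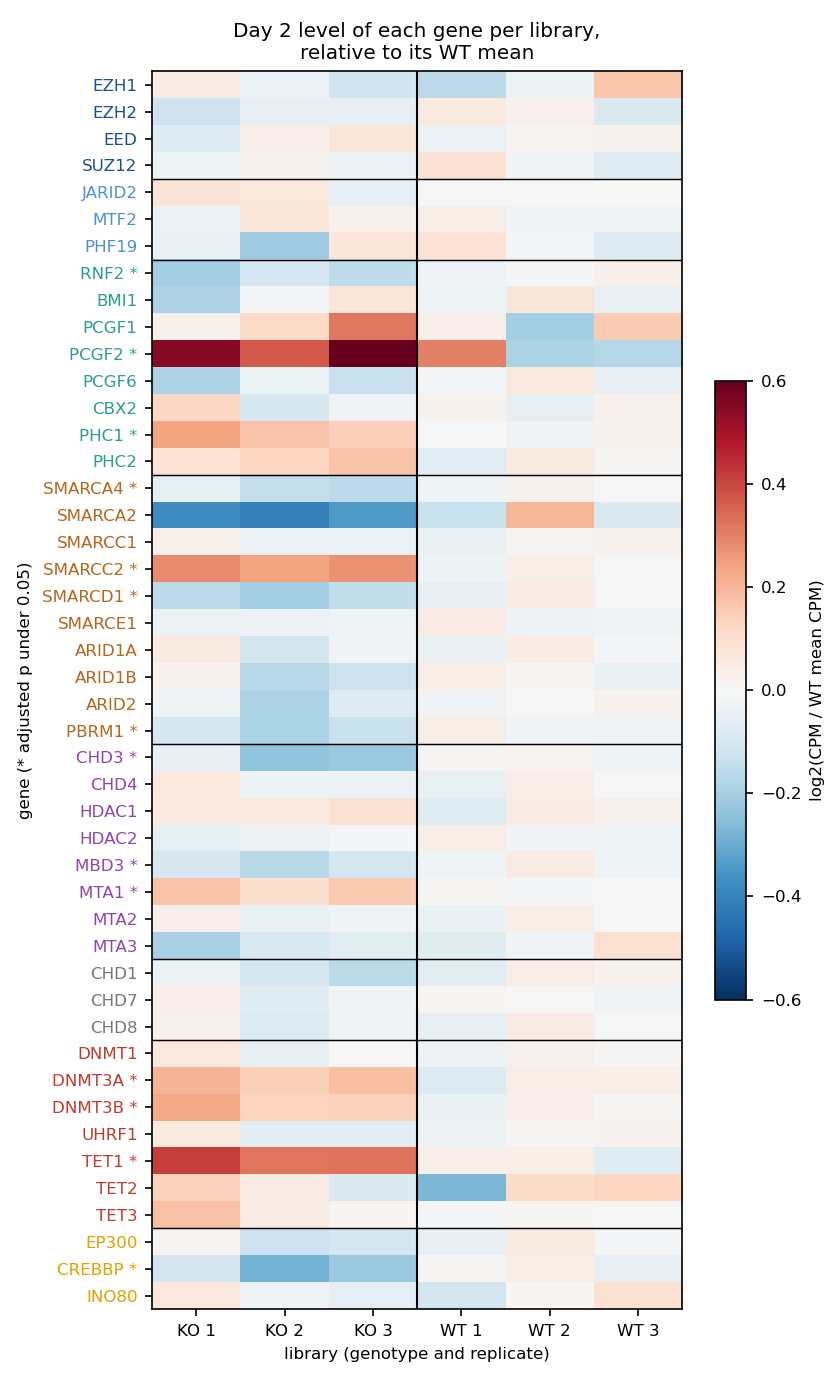
Day 2 level of 46 genes in each library, as log2 of its CPM over the gene's WT mean (red higher, blue lower, colours saturate at 0.6), with the 3 KO columns left of the 3 WT columns, asterisks at an adjusted p under 0.05, and horizontal lines between complexes. SMARCB1, with counts near 0, is left out; TET1, SMARCC2, DNMT3A and DNMT3B are redder in every KO column than in any WT column, and CREBBP and SMARCD1 bluer.

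Among the 7 DNA methylation genes of the set, 3 were higher in KO and none was lower, against 12.3% higher and 11% lower over all genes. This direction did not extend to 35 other DNA methylation genes, described further on, of which 2 were higher and 5 lower. TET1 (ENSG00000138336.8, GRCh38 chr10:68560656-68694482, plus strand), which oxidises methylated cytosine, stood at 159, 149 and 149 CPM in the KO libraries, against 122, 123 and 113 CPM in the WT libraries. Every KO library lay above every WT library, a difference of 27.8% (log2 fold change 0.35, SE 0.0394, edgeR adjusted p = 2.08e-08). DNMT3A (chr2:25227855-25342590, minus strand), a de novo DNA methyltransferase, stood at 116, 111 and 113 CPM in the KO libraries, against 94.7, 103 and 103 CPM in the WT libraries, again without overlap (log2 fold change 0.18, SE 0.0413, edgeR adjusted p = 0.0017). DNMT3B (chr20:32762385-32809356, plus strand), the other de novo enzyme and the most abundant, stood at 727, 681 and 683 CPM in the KO libraries, against 605, 634 and 624 CPM in the WT libraries. Its libraries did not overlap either, and the mean was 12.2% higher in KO (log2 fold change 0.17, SE 0.0318, edgeR adjusted p = 0.000162).

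The maintenance pair behaved otherwise. DNMT1, which copies methylation onto new strands, stood at 306, 282 and 292 CPM in the KO libraries, against 287, 299 and 295 CPM in the WT libraries (log2 fold change 0.00, SE 0.0334, edgeR adjusted p = 0.973). UHRF1, which brings DNMT1 to hemimethylated sites, stood at 46.5, 42.6 and 42.6 CPM in the KO libraries, against 43.7, 44.9 and 45.4 CPM in the WT libraries (log2 fold change -0.02, SE 0.0547, edgeR adjusted p = 0.803). KO and WT libraries overlapped for both genes. TET3 averaged 87.2 ± 5.37 CPM in KO and 82.6 ± 0.735 CPM in WT (SD, n = 3 each; log2 fold change 0.08, edgeR adjusted p = 0.208), and TET2 averaged 20.4 ± 1.57 CPM in KO and 19.9 ± 2.95 CPM in WT (log2 fold change 0.04, edgeR adjusted p = 0.811), and neither passed the test. The share of genes called in this group, 3 of 7, rests on few genes.

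DNMT3B and TET1 are also pluripotency-associated genes, so the pluripotency markers are given beside them. Of 14 tested markers, 2 were higher in KO (TDGF1 and DNMT3B itself) and 2 lower, or 28.6%, against 23.3% of all genes. NANOG, a core pluripotency factor, stood at 5.12, 4.52 and 5.78 CPM in the KO libraries, against 7.27, 7.76 and 7.86 CPM in the WT libraries (log2 fold change -0.57, edgeR adjusted p = 0.00127), and the surface protein PODXL was lower in KO too (log2 fold change -0.36). POU5F1 averaged 61.9 ± 5.95 CPM in KO and 62.9 ± 1.27 CPM in WT (log2 fold change -0.02, edgeR adjusted p = 0.798). The summed level of the markers without DNMT3B ran from 4039 to 4116 CPM in the KO libraries and from 3979.6 to 4075 CPM in the WT libraries, so the genotypes overlapped. Markers of the other cell types the culture could hold moved in both directions: 6 of 15 nascent and lateral mesoderm markers were higher in KO and 4 lower (summed level 7623 to 7667 CPM in the KO libraries and 7249 to 7341 CPM in the WT libraries). Of 7 endoderm markers 1 was higher and 2 lower (9219.5 to 9384 CPM in the KO libraries and 8393 to 8501 CPM in the WT libraries), with a median log2 fold change of -0.05. Most of that sum was CER1, a secreted signal inhibitor, at 8432 ± 100.5 CPM in KO and 7482 ± 44.4 CPM in WT (log2 fold change 0.17), while SOX17 and PRDM1 were lower in KO (-0.56 and -0.74). Of 5 neural markers 3 were higher (1083 to 1139 CPM in the KO libraries and 1028 to 1054 CPM in the WT libraries). Of 5 amnion and trophoblast markers 3 were lower (66.8 to 68.9 CPM in the KO libraries and 78.8 to 79.5 CPM in the WT libraries). Of 4 blood and endothelium markers TEK was higher and ETV2 lower (54.3 to 58.6 CPM in the KO libraries and 47 to 53.2 CPM in the WT libraries), with a median log2 fold change of -0.04. Much of that sum was TEK, at 25.5 ± 2.20 CPM in KO and 15.8 ± 0.201 CPM in WT. ETV2 was low, at 1.13 ± 0.215 CPM in KO and 1.85 ± 0.125 CPM in WT. The share called was 66.7% for mesoderm, 42.9% for endoderm, 60% for neural and for amnion and trophoblast, and 50% for blood and endothelium markers. These lists are short, and 23.3% of all genes were called. The part of the mix of cell states in the DNMT3 and TET1 differences was not tested.

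**Figure D2:**
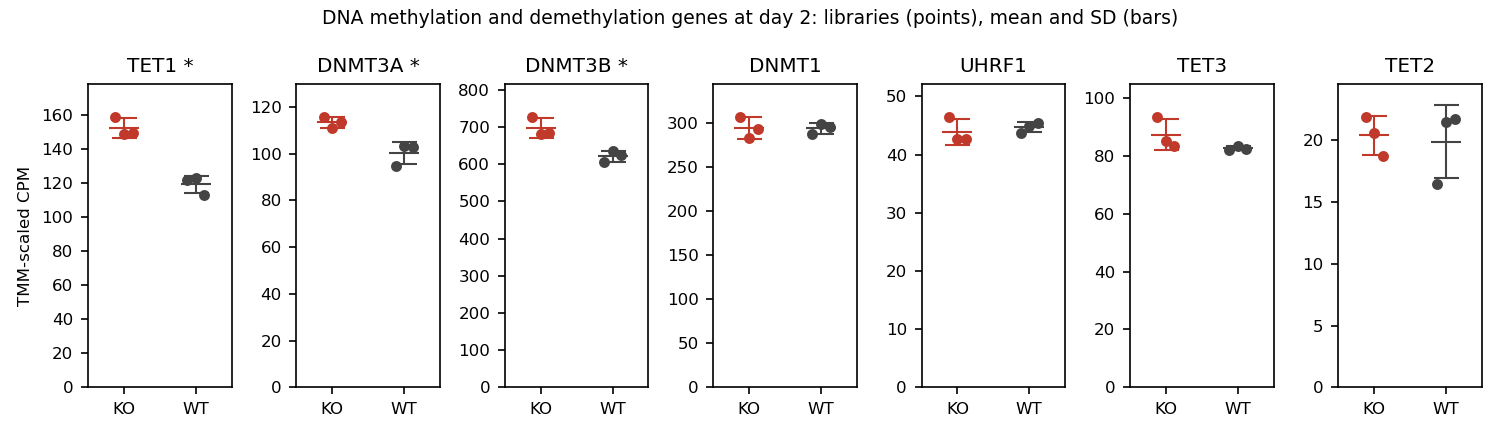
TMM-scaled CPM of the 7 DNA methylation and demethylation genes at day 2, with KO left of WT in each panel, points for libraries, bars for mean and SD (n = 3), asterisks at an adjusted p under 0.05, and axes from 0. KO points lie above WT points for TET1, DNMT3A and DNMT3B, and overlap them for DNMT1, UHRF1, TET3 and TET2.

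None of the 4 PRC2 core genes passed the test at day 2. EZH2, the catalytic subunit that dividing cells use, stood at 89.3, 94.2 and 94 CPM in the KO libraries, against 101, 99.1 and 91.8 CPM in the WT libraries (log2 fold change -0.08, SE 0.0434, edgeR adjusted p = 0.218). SUZ12, the scaffold, stood at 117, 120.5 and 116 CPM in the KO libraries, against 126, 118 and 113 CPM in the WT libraries (log2 fold change -0.01, SE 0.0410, edgeR adjusted p = 0.864). EED, which reads the methyl mark and stimulates the enzyme, stood at 41.1, 44.3 and 45.5 CPM in the KO libraries, against 42.3, 43.8 and 44 CPM in the WT libraries (log2 fold change 0.01, SE 0.0554, edgeR adjusted p = 0.946). KO and WT libraries overlapped for all 3 genes. EZH1, the alternative catalytic subunit of resting cells, averaged 14.1 ± 0.805 CPM in KO and 14.4 ± 1.64 CPM in WT (SD, n = 3 each; log2 fold change -0.03, edgeR adjusted p = 0.84). The accessory subunits JARID2, MTF2 and PHF19, which help PRC2 reach CpG-rich DNA, had log2 fold changes of 0.03, 0.02 and -0.06 and edgeR adjusted p of 0.637 to 0.770.

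PRC1 showed no common direction: of 8 tested genes 2 were higher and 1 was lower in KO, or 37.5%, against 23.3% of all genes. RNF2 (chr1:185045364-185102608, plus strand), the ubiquitin ligase of PRC1, stood at 80.3, 86.4 and 83.2 CPM in the KO libraries, against 91.1, 92.1 and 94.5 CPM in the WT libraries. No KO library reached a WT library, and the gene was lower in KO (log2 fold change -0.15, SE 0.0425, edgeR adjusted p = 0.00781). PHC1 (chr12:8913896-8941467, plus strand), a polyhomeotic subunit through which PRC1 complexes cluster, stood at 83, 79.5 and 77.9 CPM in the KO libraries, against 70.5, 69.6 and 71.5 CPM in the WT libraries, with all KO libraries above all WT libraries (log2 fold change 0.19, SE 0.0442, edgeR adjusted p = 0.002). PCGF2 (chr17:38733897-38749817, minus strand), a RING-finger partner of RNF2, was low, at 4.15, 3.66 and 4.91 CPM in the KO libraries, against 3.51, 2.49 and 2.52 CPM in the WT libraries (log2 fold change 0.58, SE 0.183, edgeR adjusted p = 0.0193). Its libraries did not overlap, but up to 45.7% of its exon bases are shared with genes on the opposite strand, CISD3 among them. Without a stated strand setting, reads from the shared bases cannot be told from theirs.

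PHC2, the paralog of PHC1, lay higher in each KO library than in any WT library, at 64.1 ± 2.01 CPM in KO and 58.6 ± 2.40 CPM in WT (SD, n = 3 each), without passing the test (log2 fold change 0.13, edgeR adjusted p = 0.0585). BMI1, PCGF1 and PCGF6, other partners of RNF2, and CBX2, which reads the PRC2 mark, overlapped between genotypes, with log2 fold changes of -0.04, 0.15, -0.12 and 0.01 and edgeR adjusted p of 0.18 or above. RING1, the paralog of RNF2, had 2, 0 and 0 counts in the KO libraries and 0 in each WT library, and was not tested. A count of 0 allows up to 3 counts, here 0.0859 to 0.109 CPM per library over the 5 libraries at 0. At day 0 RING1 was listed at 2.93 FPKM in KO and 4.26 FPKM in WT, and the part of the counting method in its near absence at day 2 was not tested. CBX8 was not analysed at day 2. RNF2 lost its call without WT replicate 3 (edgeR adjusted p = 0.0522), and PCGF2 without WT replicate 2, WT replicate 3 or KO replicate 3 (0.0968, 0.0900 and 0.116).

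Of 11 tested SWI/SNF genes, 3 were lower and 1 was higher in KO, or 36.4%, against 23.3% of all genes. SMARCA4 (chr19:10960825-11079426, plus strand), the main ATPase of the complex in stem cells, stood at 461, 433 and 428 CPM in the KO libraries, against 469, 486 and 477 CPM in the WT libraries, a difference of -7.74% in KO without overlap (log2 fold change -0.12, SE 0.0322, edgeR adjusted p = 0.00726). SMARCD1 (chr12:50084972-50100712, plus strand), a core subunit that contacts transcription factors, stood at 171, 165 and 172 CPM in the KO libraries, against 184, 197 and 190.0 CPM in the WT libraries, also without overlap (log2 fold change -0.17, SE 0.0352, edgeR adjusted p = 0.000402). PBRM1 (chr3:52545352-52685917, minus strand), a bromodomain subunit that defines the PBAF form, stood at 196, 184 and 191 CPM in the KO libraries, against 215, 208 and 207 CPM in the WT libraries, and its KO libraries all lay below its WT libraries (log2 fold change -0.14, SE 0.0342, edgeR adjusted p = 0.00255). SMARCC2 (chr12:56162983-56189567, minus strand), a scaffold subunit associated in mouse with differentiated forms of the complex, went the other way, at 66.6, 64.4 and 65.9 CPM in the KO libraries, against 53.5, 56 and 54.6 CPM in the WT libraries, with no overlap and 19.9% higher in KO (log2 fold change 0.26, SE 0.0476, edgeR adjusted p = 8.57e-05).

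SMARCC1, the scaffold subunit characteristic of the mouse stem cell form, overlapped between genotypes at 477 ± 11.7 CPM in KO and 482 ± 11 CPM in WT (SD, n = 3 each; log2 fold change -0.01, edgeR adjusted p = 0.805). ARID1A and ARID1B, which define the BAF form, ARID2, which defines PBAF, and the core subunit SMARCE1 had log2 fold changes of -0.02, -0.09, -0.10 and -0.03, and none passed the test. SMARCA2, the alternative ATPase, was low and lay lower in every KO library than in any WT library, at 3.67 ± 0.0929 CPM in KO and 4.76 ± 0.607 CPM in WT, without passing the test (log2 fold change -0.38, edgeR adjusted p = 0.0845). SMARCB1, a core subunit, had 5, 8 and 21 counts in the KO libraries and 12, 13 and 12 in the WT libraries, although it was listed at 24.3 FPKM in KO and 21.7 FPKM in WT at day 0. DERL3 on the opposite strand shares 17.7% of its exon bases, and the day 2 values of SMARCB1 are not read as a level of the gene. It stays counted, as not called, among the 11 tested SWI/SNF genes and the 47 tested genes. SMARCA4 lost its call without WT replicate 2 (edgeR adjusted p = 0.0615) and without KO replicate 3 (0.0915).

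Of 8 NuRD genes, 2 were lower and 1 was higher in KO, or 37.5%, against 23.3% of all genes. CHD3 (chr17:7884806-7912760, plus strand), an ATPase of the complex, stood at 119, 105 and 106 CPM in the KO libraries, against 124, 125 and 121 CPM in the WT libraries, with no overlap although KO replicate 1 lay close to the WT libraries (log2 fold change -0.17, SE 0.0432, edgeR adjusted p = 0.00436). MBD3 (chr19:1573596-1592801, minus strand), which joins the deacetylase and remodelling modules, stood at 91.9, 87.4 and 91 CPM in the KO libraries, against 96.5, 102 and 96.2 CPM in the WT libraries, a difference of -8.13% in KO (log2 fold change -0.12, SE 0.0416, edgeR adjusted p = 0.03). MTA1 (chr14:105419820-105470729, plus strand), a scaffold that holds the deacetylases, stood at 156, 148 and 154 CPM in the KO libraries, against 139, 138 and 139 CPM in the WT libraries, with all KO libraries higher (log2 fold change 0.14, SE 0.0360, edgeR adjusted p = 0.00384). CHD4, the principal ATPase, stood at 622, 583 and 582 CPM in the KO libraries, against 578, 612 and 596 CPM in the WT libraries and overlapped (log2 fold change 0.00, SE 0.0323, edgeR adjusted p = 0.983). Up to 57.1% of CHD4 exon bases are shared with AC006064.6 on the same strand and AC006064.2 on the opposite one. Reads from the shared bases cannot be told from theirs. HDAC1, a deacetylase, stood at 124, 124 and 127 CPM in the KO libraries, against 113, 123 and 121 CPM in the WT libraries, higher in each KO library but not past the test (log2 fold change 0.07, SE 0.0391, edgeR adjusted p = 0.206).

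HDAC2, the other deacetylase, and the scaffolds MTA2 and MTA3 overlapped between genotypes, with log2 fold changes of -0.03, -0.01 and -0.12. Outside NuRD, CHD1, which acts at transcribed genes, averaged 152 ± 6.58 CPM in KO and 163 ± 5.98 CPM in WT (SD, n = 3 each; log2 fold change -0.10, edgeR adjusted p = 0.0544). CHD7, which binds enhancers, and CHD8 had log2 fold changes of -0.02 and -0.03 and did not pass the test. MBD3 was the least stable call, lost without WT replicate 2 (edgeR adjusted p = 0.168), KO replicate 2 (0.119) or KO replicate 3 (0.0669). MTA1 lost its call with GC content and length trends removed (edgeR adjusted p = 0.116), where CHD4 turned lower in KO (log2 fold change -0.06, edgeR adjusted p = 0.0456).

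Of the acetyltransferases and INO80, 1 of 3 was lower in KO, against 11% of all genes. CREBBP (chr16:3725054-3880726, minus strand), a histone acetyltransferase that also serves as a cofactor of beta-catenin, stood at 222, 197 and 205 CPM in the KO libraries, against 241, 246 and 231 CPM in the WT libraries. Each KO library lay below each WT library, a difference of -13.1% (log2 fold change -0.20, SE 0.0375, edgeR adjusted p = 0.000135). Its paralog EP300 stood at 285, 259 and 263 CPM in the KO libraries, against 273, 293 and 281 CPM in the WT libraries, and the libraries overlapped (log2 fold change -0.07, SE 0.0359, edgeR adjusted p = 0.172). INO80, the ATPase of a remodeller that exchanges histone variants, averaged 63.1 ± 2.77 CPM in KO and 63.3 ± 4.40 CPM in WT (SD, n = 3 each; log2 fold change 0.00, edgeR adjusted p = 0.972). EP300 was called lower in KO without KO replicate 1 and with GC content and length trends removed.

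Paralogs that occupy the same place in a complex were compared as the log2 ratio of their CPM + 0.5 within each library, which cancels differences of depth. Of 13 pairs compared, 8 had ratios that did not overlap between genotypes. Apart from HDAC1 over HDAC2, each of the 8 holds a gene already called on its own, so these ratios are no separate evidence. The share over other pairs of genes was not computed, and 37.7% of single genes did not overlap, so the count is given as a description. With 3 libraries against 3, no ratio can reach an exact permutation p below 0.1 (2-sided; 0.162 after Benjamini-Hochberg adjustment over the 13). SMARCC1 over SMARCC2 was 2.85 ± 0.0226 in KO and 3.13 ± 0.0213 in WT (SD, n = 3 each), a difference of -0.27. TET1 over TET3 was 0.80 ± 0.0383 in KO and 0.53 ± 0.0600 in WT, higher in every KO library. CHD4 over CHD3 was 2.44 ± 0.0486 in KO and 2.26 ± 0.0418 in WT, MTA1 over MTA2 -0.92 ± 0.0185 in KO and -1.07 ± 0.0479 in WT, EP300 over CREBBP 0.37 ± 0.0209 in KO and 0.24 ± 0.0523 in WT, and HDAC1 over HDAC2 -1.98 ± 0.0149 in KO and -2.09 ± 0.0977 in WT, each higher in all KO libraries; the first carries the limit on CHD4 given above.

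BMI1 over PCGF2 was 1.80 ± 0.180 in KO and 2.35 ± 0.269 in WT, lower in all KO libraries, with the limit on PCGF2 given above and with 23.3% of BMI1 exon bases shared with the COMMD3-BMI1 readthrough gene. SMARCA4 over SMARCA2 was 6.72 ± 0.0697 in KO and 6.51 ± 0.139 in WT, but with a pseudocount of 5 CPM the libraries overlapped and the difference of 0.21 became 0.05. DNMT3B over DNMT3A was 2.61 ± 0.0311 in KO and 2.63 ± 0.0385 in WT and EZH2 over EZH1 2.67 ± 0.119 in KO and 2.72 ± 0.231 in WT, and both overlapped between genotypes. The de novo DNA methyltransferases thus kept their ratio within the spread of the libraries while each was higher in KO.

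**Figure D3:**
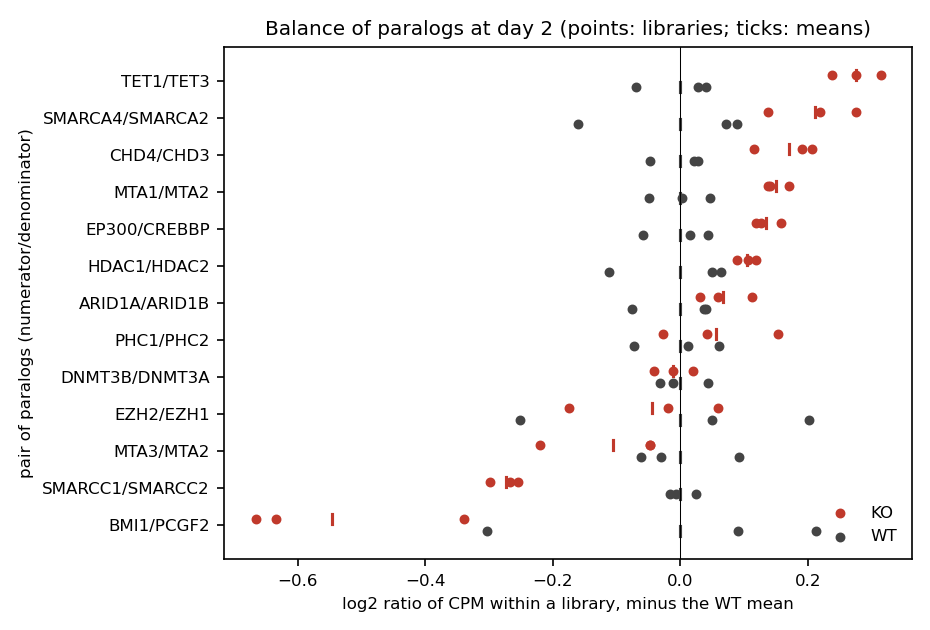
Log2 ratio of CPM + 0.5 of 13 pairs of paralogs within each day 2 library, after subtraction of the pair's WT mean, with the 3 KO points above the 3 WT points in each row and ticks at the means. KO and WT points are apart for 8 pairs, with SMARCC1/SMARCC2 and BMI1/PCGF2 to the left and 6 pairs to the right.

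Levels were compared between genes per length, as FPKM at day 0 and as CPM per kilobase of annotated exon sequence at day 2. DNMT3B led at both days, at 527 FPKM in KO and 318 FPKM in WT at day 0 and, in CPM per kilobase at day 2, 150.5 ± 5.58 in KO and 134 ± 3.26 in WT (SD, n = 3 each). In WT at day 2, MTA2, SMARCC1, CHD4, SMARCD1, HDAC2 and SMARCA4 came next, each separated from its neighbour in the order by more than the spread of 3 libraries. That spread does not cover error in length, which counts every annotated exon of a gene whether or not it is used in these cells. SMARCA4, HDAC1 and DNMT1 then overlapped in turn, and 24 of 45 neighbouring places in the order were separate, with SMARCB1 left out. The place of CHD4 rests on reads it may share with overlapping genes. PHC1 came next to DNMT3B at day 0, with 299.7 FPKM in KO and 281 FPKM in WT, but was far down at day 2, in CPM per kilobase at 13.2 ± 0.425 in KO and 11.6 ± 0.151 in WT. At the low end of WT at day 2 stood PHF19, PCGF2 and SMARCA2, and at day 0 BMI1, CBX8 and TET2. The WT orders of the 46 genes left at the 2 days had a Spearman correlation of 0.605, a description that includes the difference in unit and in how length was counted.

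**Figure D4:**
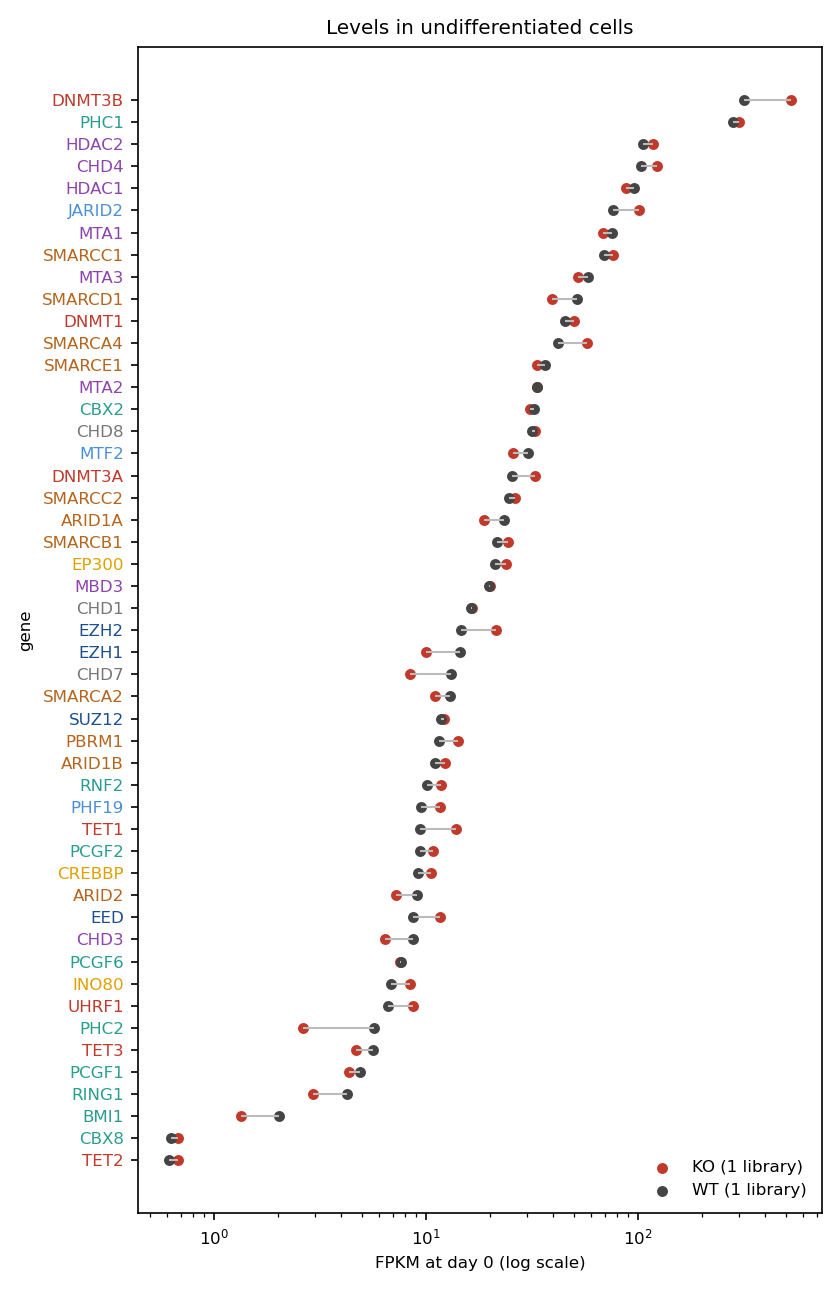
FPKM of the 49 genes at day 0 on a log scale, ordered by WT level and coloured by complex in the axis labels, with 1 KO (red) and 1 WT (grey) library. Levels span from below 1 FPKM for TET2 and CBX8 to 527 FPKM in KO and 318 FPKM in WT for DNMT3B.

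Other genes of the same complexes and pathways were counted for comparison. Over 190 such genes tested, each counted once, 12 were higher and 27 lower in KO, or 20.5%, against 23.3% of all genes. Their median log2 fold change was -0.02. In the separate lists below, the share called ran from 16.7% to 41.2%. Among 42 other Polycomb genes 3 were higher and 4 lower: ASXL2 (log2 fold change 0.21), of the complex that removes the PRC1 mark, and MGA (0.17), a PRC1 partner, were higher, and CBX6 (-0.17), a reader of the PRC2 mark, was lower. Of 17 other SWI/SNF genes 3 were higher and 4 lower, among the lower BCL7C (-0.26), SS18 (-0.20) and SMARCD2 (-0.20). Of 12 other NuRD genes, ZMYND8 (0.23) and the demethylase KDM1A (0.11) were higher and the histone chaperone RBBP4 (-0.15) lower. None of 21 other CHD and ISWI genes was higher and 5 were lower, with BPTF (-0.17), the histone-reading subunit of NURF, and POLE3 (-0.16) among them.

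Of 30 other INO80 and SWR1 genes 1 was higher and 5 were lower, including EPC2 (-0.22), EPC1 (-0.19) and MEAF6 (-0.16), subunits of the acetyltransferase complexes counted with them. Of 35 other DNA methylation genes 2 were higher and 5 lower. IDH1 (-0.32), whose product supplies the TET cofactor, and GADD45G (-0.32) were lower, and GADD45A (0.24) was higher. Of 42 other acetyltransferases and deacetylases 1 was higher and 6 lower, with RCOR3 (-0.32), BRPF3 (-0.21) and NCOA2 (-0.21) showing the largest changes of the 7. The values in parentheses are log2 fold changes of genes past the edgeR threshold. These lists gave different counts when single libraries were left out, as described further on.

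Several of the 49 genes, EZH2, DNMT1 and UHRF1 among them, are known to follow cell division. Of 28 S phase and proliferation genes 2 were higher and 6 lower in KO, or 28.6%, against 23.3% of all genes. Their summed level was 4864 to 4912 CPM in the KO libraries and 5191 to 5210.3 CPM in the WT libraries, without overlap. The 2 that were higher were MCM6 and E2F1. The largest changes among the called genes were decreases: the cyclins CCNA2 and CCNB1 had log2 fold changes of -0.31 and -0.28, and the mitotic kinase PLK1 -0.24. At day 0 these genes ran the other way, with 10 of 28 past a log2 ratio of 0.32 higher in KO and 1 lower. Over all genes at day 0, 14.9% were past it higher and 22.2% lower. The part of proliferation in the values of the chromatin genes was not tested.

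Genes that these systems are known to silence were counted in the same way. Of 64 listed developmental genes that Polycomb holds silent in stem cells, only the 29 expressed enough to pass the filter on low counts were tested. Among the 29, 6 were higher and 16 lower in KO, or 75.9%, against 23.3% of all genes. Their median log2 fold change was -0.17, against 0.00 over all genes. The filter kept genes expressed in this culture, so the share is a description and no measure of silencing. Among lineage and pluripotency markers, 66.7% of nascent and lateral mesoderm and 28.6% of pluripotency markers were called. The genes higher in KO were LHX1, FOXC1, HAND2, IRX3, IRX5 and BMP2, with log2 fold changes up to 0.56. Of the 16 that were lower, 7 are neighbours in the HOXB cluster on chromosome 17, so they are not separate places in the genome. The 3 largest decreases were in genes of low level: HOXB8, which patterns the body axis, averaged 1.46 ± 0.129 CPM in KO and 4.01 ± 0.638 CPM in WT (SD, n = 3 each; log2 fold change -1.45). Its neighbour HOXB5 averaged 1.76 ± 0.572 CPM in KO and 4.10 ± 0.532 CPM in WT (log2 fold change -1.25), and ISL1, a factor of heart progenitors, 2.21 ± 0.424 CPM in KO and 4.95 ± 0.298 CPM in WT (log2 fold change -1.16). Many of these genes are also markers of the lineages that form at day 2, so the list is no readout of Polycomb activity alone. Of 25 listed germline genes that promoter DNA methylation silences, only 4 were tested and 3 were higher in KO: PIWIL2 at 7.93 ± 0.524 CPM in KO and 4.22 ± 0.233 CPM in WT, TEX15 at 21.2 ± 1.28 CPM in KO and 15.4 ± 1.13 CPM in WT and STK31 at 12.1 ± 0.940 CPM in KO and 9.0 ± 0.238 CPM in WT (SD, n = 3 each; log2 fold changes 0.91, 0.46 and 0.42). All 3 act in germ cells, and their levels were low. Over all genes 12.3% were higher in KO. The 4 were tested because they were expressed enough to pass the filter, so they cannot show whether silencing changed. At day 0 PIWIL2 stood at 5.21 FPKM in KO and 5.19 FPKM in WT (log2 ratio 0.00). TEX15 stood at 3.16 FPKM in KO and 1.92 FPKM in WT at day 0 (log2 ratio 0.51), and STK31 had no day 0 value. No DNA or histone methylation was measured.

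At day 0, with 1 library per genotype and no test, 8 of the 47 genes with at least 1 FPKM were past a log2 ratio of 0.32 higher in KO and 7 past it lower, on the scale of FPKM + 1, which understates changes of low genes. Of all 13282 genes, 14.9% were past that ratio higher and 22.2% lower, and 37.0% in either direction, so that 15 of 47 is no larger a share. DNMT3B was highest in both libraries and differed the most in size among the genes higher in KO, at 527 FPKM in KO and 318 FPKM in WT (log2 ratio 0.73). TET1 followed at 13.9 FPKM in KO and 9.34 FPKM in WT (log2 ratio 0.53), EZH2 at 21.5 FPKM in KO and 14.6 FPKM in WT (log2 ratio 0.53) and SMARCA4 at 57.5 FPKM in KO and 42.1 FPKM in WT (log2 ratio 0.44). JARID2 stood at 101 FPKM in KO and 76.2 FPKM in WT (log2 ratio 0.40) and EED at 11.7 FPKM in KO and 8.72 FPKM in WT (log2 ratio 0.39). DNMT3A and UHRF1 made up the 8, with log2 ratios of 0.36 and 0.34. Thus 4 of the 6 DNA methylation genes with a ratio were past 0.32 higher in KO and none was past it lower. TET3 lay lower in KO without passing it, at 4.67 FPKM in KO and 5.66 FPKM in WT (log2 ratio -0.23). Markers of cell state differed at day 0 as well. Of 14 pluripotency markers without DNMT3B, 6 were past a log2 ratio of 0.32 higher in KO and 2 lower (median log2 ratio 0.21). Among the higher was NANOG, at 22.3 FPKM in KO and 13.7 FPKM in WT (log2 ratio 0.67). The 2 lower were POU5F1, at 113 FPKM in KO and 149 FPKM in WT (log2 ratio -0.40), and PODXL, at 346 FPKM in KO and 506 FPKM in WT (log2 ratio -0.55). All 4 neural markers with a ratio were past 0.32 lower in KO (median -0.60), and so were all 4 amnion and trophoblast markers (median -0.96). The part of cell state in the day 0 values of the DNA methylation genes was not tested.

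Lower in KO at day 0 were PHC2 at 2.65 FPKM in KO and 5.66 FPKM in WT (log2 ratio -0.87), CHD7 at 8.37 FPKM in KO and 13.2 FPKM in WT (log2 ratio -0.59) and EZH1 at 9.96 FPKM in KO and 14.4 FPKM in WT (log2 ratio -0.49). RING1 stood at 2.93 FPKM in KO and 4.26 FPKM in WT (log2 ratio -0.42), CHD3 at 6.43 FPKM in KO and 8.67 FPKM in WT (log2 ratio -0.38) and SMARCD1 at 39.1 FPKM in KO and 51.4 FPKM in WT (log2 ratio -0.38). BMI1 was the remaining one, with a log2 ratio of -0.38 at 1.34 FPKM in KO and 2.04 FPKM in WT. PRC1 genes supplied 3 of the 7 (PHC2, RING1 and BMI1) and none of the 8 that were higher. These are 3 of 9 PRC1 genes with a ratio, against 22.2% of all genes past it lower, and all 3 stood at 5.66 FPKM or less. With no replicate at day 0, none of these ratios can be set against a spread between libraries.

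Set side by side, the differences of the 2 days had the same sign in 21 of 46 genes (45.7%), against 43.6% of 10994 genes. TET2, which had no day 0 ratio, is left out of these 46. SMARCB1 is counted in them, with opposite signs, although its day 2 values are not read as a level. Among the 14 genes called at day 2, 8 had the same sign at day 0 (57.1%), against 946 of 2490 called genes overall (38%). TET1, DNMT3A and DNMT3B were higher in KO at both days and past 0.32 at day 0, and SMARCD1 and CHD3 were lower at both days. SMARCA4, CREBBP, PBRM1 and RNF2 were lower in KO at day 2 and listed higher in the KO library at day 0. EZH2, with a log2 ratio of 0.53 at day 0, had a log2 fold change of -0.08 at day 2 that did not pass the test. Each day was compared within its own table and unit, and the change between days was not tested.

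**Figure D5:**
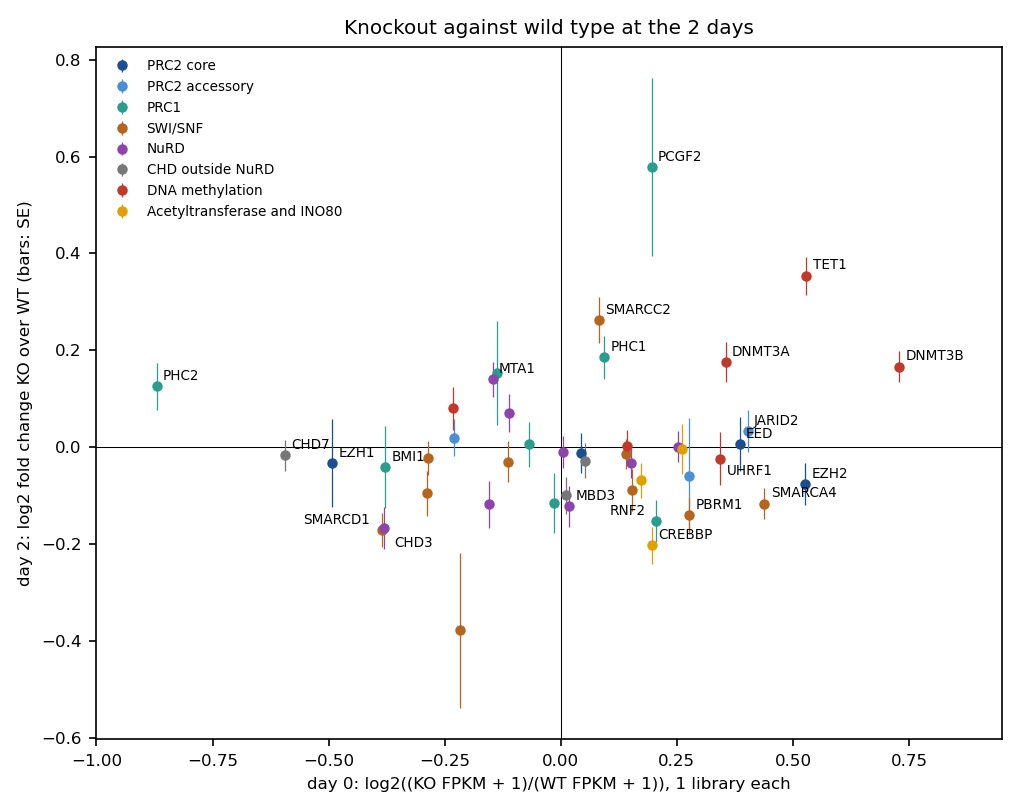
Log2 fold change of KO over WT at day 2 (vertical, bars SE, n = 3 each) against the log2 ratio of FPKM + 1 at day 0 (horizontal, 1 library each), coloured by complex, with names for genes called at day 2 or past a log2 ratio of 0.32 at day 0 and SMARCB1 left out. TET1, DNMT3A and DNMT3B lie at the upper right, SMARCD1 and CHD3 at the lower left, and SMARCA4, PBRM1, CREBBP and RNF2 at the lower right.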

How the data were processed

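RNA-seq of H1 cells gave 8 libraries, grouped by genotype and day from the sample labels. Per the file headers, the authors deposited counts per gene for day 2 and FPKM, scaled for length and depth, for day 0. HISAT2, StringTie and GRCh38 come from the submitters' processing notes, which list no version; the counter, its strand setting and the annotation: not given in the sources used here. The members and lists were chosen with earlier results of these data known.

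Day 2 counts were TMM-scaled, filtered with filterByExpr (11475 genes) and fitted with edgeR 4.0.16 in R 4.3.3 (robust quasi-likelihood F test of genotype alone, 2-sided; Benjamini-Hochberg adjustment over all genes, threshold 0.05). The biological coefficient of variation was 4.14%. Day 0 values were log2 ratios of FPKM + 1 with at least 1 FPKM in either library and a threshold of 0.32 in size. Exon lengths, positions and overlaps came from GENCODE release 29 (GRCh38). Overlaps were added over the other genes, so a base shared with several of them counts for each, and the shares are then upper limits. On simulated counts of 11458 genes, edgeR recovered 100 of 100 genes changed 2-fold and 79 of 100 changed by 0.32 on the log2 scale, with 10 false calls. The simulation gave every gene the same coefficient of variation, changed only those genes and held no outlying library. It did not cover changes below 0.32, which 12 of the 14 calls were, so it does not measure their recovery. Totals of 27880068 to 39553614 counts set the precision, and floors cover counting error only.

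Values per library are given for members called at day 2 and for 13 core genes chosen by name, up to 3 called genes are named per related list, and at day 0 up to 6 members past the threshold in each direction. DNMT3A, UHRF1 and BMI1 at day 0, other members, the developmental and the S phase genes higher in KO and individual markers were named after their values were seen. Alternatives were DESeq2 1.42.0, limma-voom (limma 3.58.1), other scalings and filters, a replicate block, leaving out each library, other pseudocounts (5 CPM for ratios; 0.1 and 5 FPKM) and, added after the data were seen, loess offsets for GC content and length. Python 3.11.15, pandas 2.3.3, numpy 2.4.6 and matplotlib 3.10.9 were used.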

Additional observations from a re-analysis of the deposited data

Results flagged for a closer look

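Genes whose 3 KO libraries at day 2 all lay on one side of the 3 WT libraries, while the KO library at day 0 lay on the other side of the WT library, are given here. The difference between the days was not tested, and day 0 has 1 library per genotype. The values are the log2 fold change of KO over WT at day 2 and the log2 ratio of FPKM + 1 at day 0. SMARCA4 had -0.12 at day 2 and 0.44 at day 0, CREBBP -0.20 at day 2 and 0.20 at day 0, PBRM1 -0.14 at day 2 and 0.28 at day 0 and RNF2 -0.15 at day 2 and 0.20 at day 0. MBD3 had -0.12 at day 2 and 0.02 at day 0, a day 0 value close to 0. In the other direction, PHC2 had 0.13 at day 2 and -0.87 at day 0, MTA1 0.14 at day 2 and -0.15 at day 0 and HDAC1 0.07 at day 2 and -0.11 at day 0, and of these MTA1 passed the day 2 test. Opposite signs were no rarer elsewhere, with 43.6% of 10994 genes of the same sign at both days.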

How the results depend on the processing

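The 14 calls among the chromatin genes were kept under DESeq2 size factors, removal of the filter, a minimum mean of 1 CPM, the DESeq2 Wald test and limma-voom. Upper-quartile scaling gave 8 higher and 6 lower, with PHC2 gained and MBD3 lost (edgeR adjusted p = 0.061). Leaving out 1 library gave 6 to 8 higher and 5 to 11 lower, against 7 and 7, and the 11 came without KO replicate 1. The same replicate number in KO and WT did not pair the libraries (correlations of -0.0849, -0.0702 and -0.0291 for numbers 1, 2 and 3). With the replicate block, 13 genes were called (7 higher, 6 lower), MBD3 was lost (edgeR adjusted p = 0.0683), and 2210 genes were called in all, against 2668. The block also gave 3 called genes among other CHD and ISWI genes, against 5, 2 among INO80 and SWR1 genes, against 6, and 1 among blood and endothelium markers, against 2. DESeq2 also gave 1 for those markers, and upper-quartile scaling 3 for CHD and ISWI genes.

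Called genes of the related lists ranged, without 1 library, over 5 to 11 for other Polycomb genes (7 with all libraries), 4 to 6 for other SWI/SNF (7), 3 to 5 for other NuRD (3), 2 to 7 for other CHD and ISWI (5), 2 to 7 for other INO80 and SWR1 (6), 4 to 9 for other DNA methylation genes (7), 3 to 6 for other acetyltransferases and deacetylases (7), 1 to 2 for blood and endothelium markers (2) and 23 to 42 for the related genes together (39). Removing GC content and length trends gave 1954 lower genes in all, against 1262, 17 lower chromatin genes, against 7, and called genes of 14 for other Polycomb, 6 for other NuRD, 10 for INO80 and SWR1, 14 for DNA methylation, 12 for acetyltransferases and deacetylases, 14 for S phase and 62 for the related genes together; the cause was not tested. The 47 chromatin genes have a median exon length of 7845 bases, against 5172, and a median GC content of 51.8%, against 48.1%, and across genes the log2 fold change had a Spearman correlation of 0.109 with length and 0.132 with GC content.

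Log2 fold changes near 0 changed sign. Without 1 library, SUZ12 ranged over -0.0483 to 0.032, EED over -0.0223 to 0.0529, CHD4 over -0.0289 to 0.0216 and DNMT1 over -0.0273 to 0.029. SUZ12 was 0.0031 under upper-quartile scaling, and CHD4 was -0.0616 and DNMT1 -0.064 with GC content and length trends removed. At day 0 a pseudocount of 5 FPKM left 5 genes higher and 4 lower, against 8 and 7. The day 0 depth is unknown, and the few counts of SMARCB1 and RING1 at day 2 limit what can be said of them there.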
